A study of Mus musculus with 24 samples.

Results

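The homeostatic microglia genes are a set of 9 genes that resting microglia, the resident macrophages of the brain, are known to express: P2ry12, P2ry13, Gpr34, Siglech, Selplg, Tmem119, Cx3cr1, Csf1r and Sall1. The members were chosen as known genes of this kind by name, with earlier results of these data known, and each was found once, through its Ensembl identifier, among the 53379 genes of the count table. All 9 were among the 37598 genes tested. The study injected kainic acid (KA) next to the hippocampus of mice to elicit a status epilepticus and asked how gene expression in neurons and glia had changed 24 hours later, against saline-injected mice (SH).

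Microglia survey the tissue with fine processes, and several members serve that task. P2ry12 and P2ry13 are G protein-coupled receptors for nucleotides leaking from damaged cells, Gpr34 is a related receptor for a lysophospholipid, Cx3cr1 binds the neuronal chemokine Cx3cl1, and Csf1r is the receptor for the growth factors Csf1 and Il34 on which microglia depend. Siglech, Selplg and Tmem119 encode surface proteins, and Sall1 encodes a transcription factor that maintains microglial identity. Microglia that respond to injury are known for lower levels of several of these genes.

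All animals were adult male C57/BL6N mice that arrived aged 8 weeks and were kept for 4 weeks before surgery. KA mice received 70 nl of 20 mM kainic acid, and SH mice received 0.9% NaCl. KA mice without convulsive seizures had been left out by the authors, so the KA group stands for mice with a seizure response. Right hippocampi of 8 mice per treatment were combined into 3 pools, of 4 mice for replicate 1 and 2 mice for replicates 2 and 3, so a replicate is a pool and the spread between mice cannot be seen. Nuclei of each pool were sorted by the neuronal protein NeuN into NeuN+ nuclei (neurons) and NeuN- nuclei (glia), which gave 12 mRNA libraries in 4 groups of 3. The NeuN- fraction holds oligodendrocytes, astrocytes and other cells beside microglia, and it is nuclear RNA that was measured. In such bulk libraries, fewer microglial nuclei and less RNA per nucleus cannot be told apart.

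Between 7766930 and 40354944 reads per library were counted in genes. SH glia replicate 1 and KA glia replicate 2 were amplified from 0.05 ng RNA with 15 PCR cycles, and the other libraries from 1 ng with 10 cycles. SH glia replicate 3 had the highest level of every member among the NeuN- libraries. Results that rest on these libraries are given with and without them. Levels are given as CPM, a gene's reads relative to all reads counted in the library, scaled with TMM factors that adjust for differences in library composition. The lowest count of a member in any library was 11 reads.

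Promoter sequences show what lies in front of some of these genes. RefSeq sequences from 250 bases before to 50 bases after a gene start were at hand for P2ry12, P2ry13, Siglech, Cx3cr1 and Sall1, the last with 3 starts, 7 promoters in all. They were searched on both strands for GAGGAA, the core bound by the macrophage factor PU.1, for the overlapping ETS core GGAAGT, and for TGANTCA, the motif of the activity-induced factor AP-1. The matches of P2ry12, Siglech and P2ry13 are shown because the former pair was downregulated after KA and P2ry13 did not pass the test, with the match in capitals and each window read 5′ to 3′ along the strand of its gene.
P2ry12, chr3:59263019-59263048, minus strand, 51 to 46 bases before the start: agctaacaagaaGGAAGTtccccagtgaca
P2ry13, chr3:59210913-59210942, minus strand, 48 to 43 bases before the start: acaaggggaaatGAGGAAggaaaagcagta
Siglech, chr7:55768016-55768045, plus strand, 156 to 151 bases before the start: tgtgcaacaagcACTTCCcagtctgagcca
Siglech, chr7:55768168-55768197, plus strand, at the start itself: tgctgtccctagTTCCTCttctgtgagctg

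The build of these sequences is GRCm38.p6, and the 2 Siglech matches are on the strand opposite to the gene. Distances are from the RefSeq start, which for P2ry12 and Siglech differs from the start in the gene positions given below. A GAGGAA match was held by 2 of the 7 member promoters and by 28.3% of the 32851 promoters of the same length. GGAAGT was held by 3 of the 7, those of P2ry12, Siglech and 1 start of Sall1, and by 23.8% of all promoters. No member promoter held TGANTCA, which was present in 7.81% of all promoters. The letters of a motif in a window do not show that a factor was bound there.

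The label of the set was checked in the NeuN- and NeuN+ libraries. All 9 members were higher in NeuN- than in NeuN+ nuclei, against 10.9% of all genes tested, with a logFC (log2 fold change) between 3.53 ± 0.41 (SE) for Gpr34 and 4.99 ± 0.43 for Cx3cr1 and an FDR (false discovery rate) of at most 1.48e-05. For each member, the lowest of the 6 NeuN- libraries lay above the highest of the 6 NeuN+ libraries, which held for 4.68% of all genes. Of 15 genes used as further markers of microglia, such as C1qa, Ctss and Itgam, 14 showed the same separation. The exception was Aif1, whose libraries of the 2 fractions overlapped.

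Levels of different genes were compared per length, as CPM per kilobase of exon. In SH glia the order was Csf1r with 72.4 ± 31.2 (SD, n = 3), Tmem119 with 69.5 ± 36.1, P2ry12 with 59.7 ± 32.8, Cx3cr1 with 56.8 ± 26.0, Selplg with 45.3 ± 19.99, Gpr34 with 32.4 ± 19.0, Siglech with 30.8 ± 16.5, P2ry13 with 26.7 ± 14.3 and Sall1 with 12.3 ± 9.88 CPM per kilobase. Each gene overlapped its neighbours in this order. In KA glia, Csf1r came first with 49.5 ± 21.3, followed by Cx3cr1 with 37.1 ± 14.6, Tmem119 with 27.5 ± 7.53 and P2ry13 with 12.2 ± 4.51 CPM per kilobase. P2ry12, which stood above Cx3cr1 in SH glia, came after P2ry13 in KA glia with 11.5 ± 3.94 CPM per kilobase, and Siglech was last with 6.81 ± 0.56. In KA glia the values of Tmem119 and of the next gene, P2ry13, did not overlap, whereas all other neighbours did.

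After KA, 3 of the 9 members were downregulated in glia: P2ry12, Siglech and Selplg. The other 6 also had lower means but did not pass the FDR threshold of 0.25. Of these, P2ry13, Cx3cr1, Csf1r and Sall1 overlapped with their SH values, and Gpr34 and Tmem119 did not. No member was upregulated by edgeR, DESeq2 or limma-voom, and none was higher at an unadjusted p of 0.05 in edgeR. Of all genes tested, 0.306% were called lower and 0.442% higher in KA glia. The 9 logFC values ran from -2.38 to -0.37 with a median of -1.34, whereas the median of all genes was 0.14. All 9 stayed below 0 under each of the 4 other scalings tried. The KA glia libraries lay below the 3 SH glia libraries for 5 members, against 3.00% of all genes. With CPM from library totals alone this held for 3 members, P2ry12, Siglech and Selplg, and Gpr34 and Tmem119 overlapped. The share of all genes with library totals is not given here. In same-numbered pairs of pools, KA was below SH in 3 of 3 pairs for 7 members, against 14.8% of all genes.

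**Figure D1:**
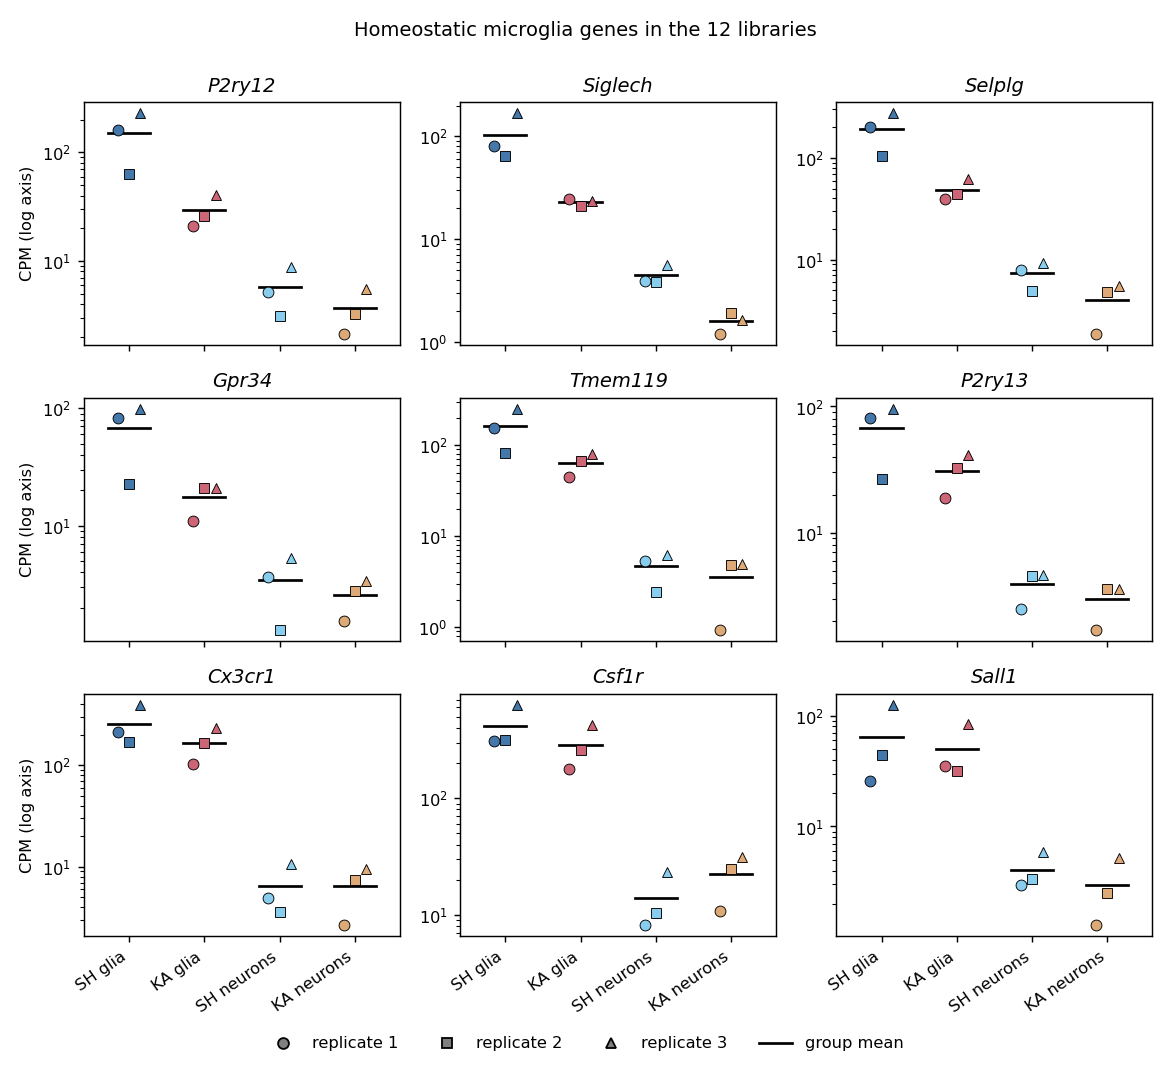
CPM of each member (log axis) in the 12 libraries, by group. Points are libraries, their shape gives the replicate, and bars are group means. In glia, the KA libraries of P2ry12, Siglech, Selplg, Gpr34 and Tmem119 sit below all 3 SH libraries (with library totals in place of TMM factors, Gpr34 and Tmem119 overlap), whereas those of P2ry13, Cx3cr1, Csf1r and Sall1 overlap, and every member is lower in neurons.

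Of the receptors for nucleotides, P2ry12 passed the test and P2ry13 did not. P2ry12 (ENSMUSG00000036353, chromosome 3 from 59216272 to 59262871 in GRCm38) had 163, 63.6 and 229 CPM in SH glia replicates 1, 2 and 3, and 21.1, 26.2 and 40.44 CPM in KA glia. The highest KA library was below the lowest SH library, SH glia replicate 2. P2ry12 was thus downregulated with a logFC of -2.38 ± 0.50 (FDR 0.0826). P2ry13 (ENSMUSG00000036362, chromosome 3 from 59207892 to 59210882) lies 5389 bases from P2ry12 on the same strand. Its values were 81.0, 26.4 and 95.0 CPM in SH glia and 18.9, 32.3 and 41.5 CPM in KA glia, where the second pair ran the other way. The logFC of P2ry13 was -1.13 ± 0.46 and did not pass (FDR 0.828). The difference between P2ry12 and P2ry13 was not tested.

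Gpr34 (ENSMUSG00000040229, chromosome X from 13632089 to 13640858) had 82.7, 22.7 and 97.8 CPM in SH glia and 10.9, 21.1 and 20.9 CPM in KA glia. The groups were separated by a narrow gap, which closed with CPM from library totals, since SH glia replicate 2 was close to the KA libraries. The logFC was -1.94 ± 0.54, with an FDR of 0.287 just outside the threshold. In the DESeq2 fit, Gpr34 passed with an FDR of 0.0548, and over all alternatives its FDR ran from 0.0456 to 1. Gpr34 was called lower in 10 of 28 alternatives.

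P2ry12, P2ry13 and Gpr34 share a feature that bears on their counts. All exon bases of P2ry12 and P2ry13 lie within the gene body of Med12l, and all those of Gpr34 within that of Cask, in each case on the opposite strand. Reads were counted without regard to strand, so intronic nuclear reads of the host gene cannot be told apart from reads of the member. Med12l, a Mediator subunit, had 77.9 CPM in SH glia and 63.1 CPM in KA glia on average (logFC -0.30 ± 0.38, FDR 1.00). Cask, a synaptic scaffold kinase, had 112 and 72.6 CPM (logFC -0.63 ± 0.34, FDR 1.00). The Cask libraries of KA and SH glia did not overlap, and once replicate numbers entered the model as blocks, Cask was called lower (logFC -0.66, FDR 0.156). Both logFC values were nearer to 0 than those of the members the genes enclose, and the part of host reads in the members was not tested.

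Among the surface proteins, Siglech and Selplg were downregulated. Siglech (ENSMUSG00000051504, chromosome 7 from 55768178 to 55778925) encodes a sialic acid-binding receptor that signals through an adaptor. It had 80.6, 63.8 and 168 CPM in SH glia and 24.5, 20.9 and 23.7 CPM in KA glia. The KA libraries were close to each other and lay below each SH library. The logFC was -2.18 ± 0.37 (FDR 0.0295), and Siglech was the one member below an FDR of 0.05.

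Selplg (ENSMUSG00000048163, chromosome 5 from 113818536 to 113832644) encodes the glycoprotein PSGL-1, a ligand of selectins. Its SH glia libraries had 202, 104 and 274 CPM, and its KA glia libraries 39.4, 43.7 and 62.6 CPM. The groups did not overlap, and Selplg fell with a logFC of -1.99 ± 0.44 (FDR 0.107). Tmem119 (ENSMUSG00000054675, chromosome 5 from 113793729 to 113800516), a membrane protein used as a microglial marker, lies 18019 bases from Selplg on the same strand. It had 154, 81.2 and 248 CPM in SH glia and 44.8, 66.7 and 79.2 CPM in KA glia. These groups were separated by the small gap between KA glia replicate 3 and SH glia replicate 2, which closed with CPM from library totals, and the logFC of -1.34 ± 0.52 did not pass (FDR 0.772).

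The chemokine and growth factor receptors showed smaller differences. Cx3cr1 (ENSMUSG00000052336, chromosome 9 from 119901616 to 120069879) had 211, 167 and 388 CPM in SH glia and 102, 166 and 233 CPM in KA glia. The groups overlapped, and the logFC was -0.61 ± 0.51 (FDR 1.00). Csf1r (ENSMUSG00000024621, chromosome 18 from 61100598 to 61132149), the first member by level per length, had 311, 317 and 626 CPM in SH glia and 179, 259 and 420 CPM in KA glia. Its logFC was -0.55 ± 0.50 (FDR 1.00), again with overlapping groups. Of the exon bases of Csf1r, 15.12% are also exon of Hmgxb3 on the other strand.

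Sall1 (ENSMUSG00000031665, chromosome 8 from 89027235 to 89044162) had 25.8, 44.4 and 124 CPM in SH glia and 34.9, 31.8 and 83.4 CPM in KA glia. Its values followed the replicate more than the treatment. The highest value was in replicate 3 of both groups, as for every other member except Gpr34 and Siglech. The logFC was -0.37 ± 0.56 (FDR 1.00), and without SH glia replicate 3 it was 0.51.

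**Figure D2:**
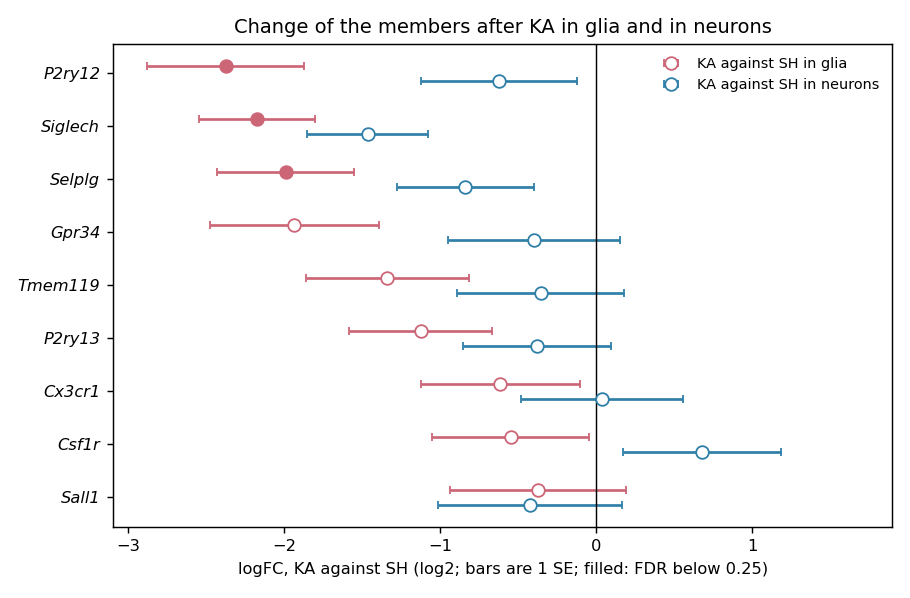
logFC (log2) of KA against SH for each member in glia and in neurons, with bars of 1 SE and filled points for an FDR below 0.25. In glia, P2ry12, Siglech and Selplg are filled and all 9 points lie left of 0. In neurons no point is filled, and Csf1r lies to the right of 0.

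Replicates of the same number deviated together, so a replicate block was fitted beside the main model. With the block, 6 members were called lower in glia. These were P2ry12, Siglech, Selplg, Gpr34 (logFC -1.78, FDR 0.0456), Tmem119 (logFC -1.24, FDR 0.124) and P2ry13 (logFC -1.01, FDR 0.179). Among all genes, 1566 were called lower with the block and 115 without it. When glia were fitted apart from neurons, with the gene symbols used here and the filter applied to glia alone, P2ry12 and Siglech were called and Selplg missed the threshold (FDR 0.275).

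The calls depended on single libraries more than the logFC did. Without KA glia replicate 2, and likewise without both low-input libraries, no member was called lower by edgeR. At an unadjusted p under 0.05, 5 members were lower in either fit, where the share of all genes is not given here. In the main fit, 6 members and 1012 of all 37598 genes were lower at that p. In the fit without both low-input libraries, P2ry12 had a logFC of -2.44 (FDR 0.823), Siglech -2.49 (FDR 0.295) and Selplg -2.08 (FDR 0.971). Without SH glia replicate 3 or without KA glia replicate 1, Siglech was the 1 member called. Without SH glia replicate 2, 5 members were called, with Gpr34 and P2ry13 added. Over 28 alternatives the FDR ran from 0.000612 to 0.823 for P2ry12, from 7.02e-05 to 0.295 for Siglech and from 0.0016 to 0.971 for Selplg. The logFC of these genes stayed between -2.75 and -1.65 in these alternatives.

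The members were next set against other genes of the same cells. A list of 15 pan-microglia genes, which microglia express in many states, had a median logFC of -0.14 in glia, with 0 genes called in either direction by edgeR, DESeq2 or limma-voom and 0 at an unadjusted p under 0.05. With library totals in place of TMM factors, that median was 0.09 and the median of all genes 0.42, and the median of the members was -1.01. The smallest p values of the list belonged to Ly86 (logFC 0.86 ± 0.48), Laptm5 (-0.61 ± 0.38) and Ptprc (0.35 ± 0.35). The summed level of the list was 1018 to 1924 CPM in SH glia and 949 to 2142 CPM in KA glia, so the groups overlapped. Laptm5 was called lower with the replicate block (logFC -0.64, FDR 0.19), the 1 call of the list there.

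Expressed as a percentage of this sum, the 9 members together stood at 79.8, 87.5 and 117% in SH glia and at 49.98, 55.9 and 46.9% in KA glia. The KA value was 0.538 of the SH value on average, and the groups did not overlap. P2ry12 stood at 9.36% ± 2.88 (SD, n = 3) of the sum in SH glia and at 2.10% ± 0.19 in KA glia. For Siglech the values were 6.63% ± 1.93 and 1.81% ± 0.74, for Selplg 12.3% ± 2.02 and 3.58% ± 0.62, for Gpr34 4.12% ± 1.64 and 1.296% ± 0.417, and for Tmem119 10.1% ± 2.53 and 4.67% ± 0.95. These percentages are a description and were not tested, and the share of all genes without overlap on this scale is not given here. Cx3cr1, at 16.5% ± 3.67 and 11.8% ± 1.81, and Csf1r, at 27.5% ± 7.47 and 20.04% ± 1.48, overlapped between the groups, as P2ry13 and Sall1 did.

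**Figure D3:**
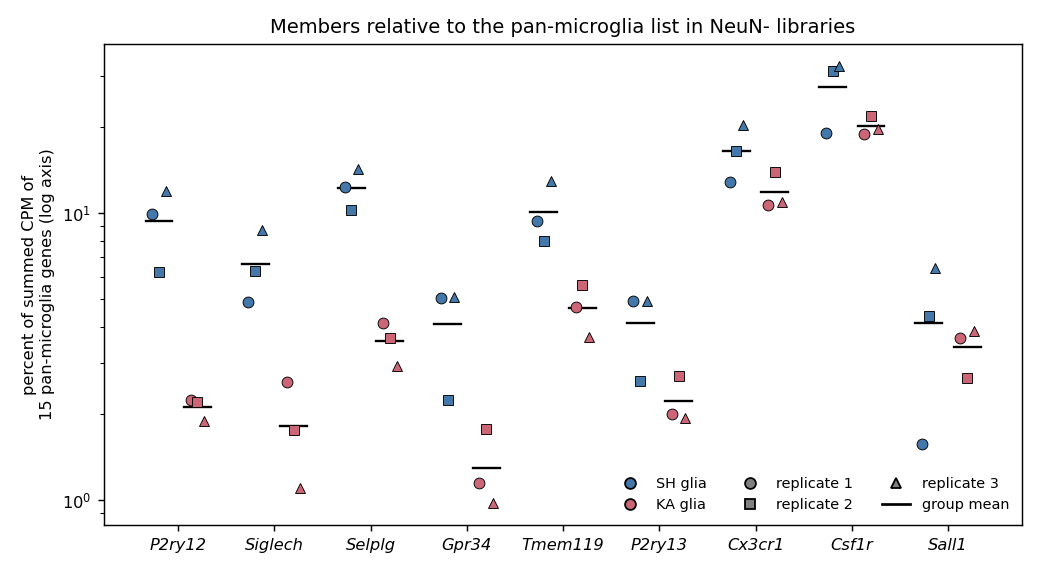
Each member's CPM as a percentage of the summed CPM of 15 pan-microglia genes (log axis) in the 3 SH and 3 KA glia libraries, with bars for group means. P2ry12, Siglech, Selplg, Gpr34 and Tmem119 are lower in each KA library than in each SH library, and the other 4 members overlap. The share of all genes without overlap on this scale is not given here.

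Markers of other glia had lower sums in KA glia. The summed level of 8 astrocytic genes was 1822 to 2627 CPM in SH glia and 849.6 to 1692 CPM in KA glia, and that of 4 oligodendrocyte precursor (OPC) genes 784 to 1380 and 350 to 564 CPM. Both were without overlap, and no gene of either list was at 0. With library totals in place of TMM factors, the astrocytic sums overlapped. For 7 oligodendrocytic genes, the ranges of 11880 to 24820 and 6445 to 12030 CPM overlapped. Relative to the oligodendrocytic sum, the 9 members together stood at 5.67, 7.50 and 9.07% in SH glia and at 4.99, 10.4 and 8.36% in KA glia, a ratio of 1.07 between the means. On this scale P2ry12, Siglech and Selplg were lower in each KA library, and Tmem119 and Gpr34 overlapped. The share of all genes lower in this way is not given here. The part that a changed mix of nuclei has in the members' decrease was not tested.

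Of the OPC genes 1 was called lower, Cspg4 (logFC -1.44 ± 0.38, FDR 0.24), and of the astrocytic and oligodendrocytic genes 0 were called by edgeR. At an unadjusted p under 0.05, 3 astrocytic and 3 oligodendrocytic genes were lower. DESeq2 called 2 astrocytic and 1 oligodendrocytic gene, and limma-voom 0 and 1. With the replicate block, 6 astrocytic, 4 oligodendrocytic and 3 OPC genes were called lower. The median logFC was -0.94 for the astrocytic, -0.996 for the oligodendrocytic and -1.13 for the OPC genes. The leading astrocytic genes were Slc4a4 (-1.36 ± 0.43), Gja1 (-1.69 ± 0.60) and Gjb6 (-1.64 ± 0.75). Not all astrocytic genes were lower. Aqp4, the water channel, had 72.4, 88.2 and 102 CPM in SH glia and 158, 130 and 133 CPM in KA glia, without overlap (logFC 0.68 ± 0.72, not called), and Aldh1l1 had a logFC of -0.11 ± 0.36; both are named after their values were seen. The leading oligodendrocytic genes were Cnp (-1.502 ± 0.464), Mog (-1.35 ± 0.57) and Ermn (-0.996 ± 0.426).

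Other homeostatic genes had a median logFC of -0.48 in a list of 18, 15 of them below 0. Slc2a5, a fructose transporter, was downregulated with a logFC of -2.53 ± 0.47 (FDR 0.0438), and no other gene of the list was called. Lpcat2 (-1.06 ± 0.36, FDR 0.546) and Il10ra (-1.16 ± 0.44, FDR 0.73) came next by p. In the blocked fit, 6 genes of this list were called lower and 1 higher. Of 13 regulators of microglial identity, among them the PU.1 gene Spi1 and Irf8, 0 were called by edgeR, DESeq2 or limma-voom, with 1, Tgfbr1, at an unadjusted p under 0.05. Tgfbr1, a receptor of TGF-beta, on which the homeostatic programme depends, had a logFC of -0.87 ± 0.34 (FDR 0.797) and was called lower with the replicate block (FDR 0.0726). The median of the regulators was 0.27 and Runx1 (0.59 ± 0.42) was not called.

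Genes of activated microglia ran in the opposite direction to the members. Of 18, 5 were upregulated in glia by edgeR, against 0.442% of all genes called higher. By any of the 3 tools 0 were downregulated, and the median logFC was 1.68. The list was written with earlier results of these data known, so these counts are a description. Ch25h, Spp1, Msr1 and Lpl are among the genes the study lists as upregulated in glia. Ch25h, which makes 25-hydroxycholesterol, rose with a logFC of 5.26 ± 0.70 (FDR 0.0199), Spp1, encoding osteopontin, with 5.30 ± 0.82 (FDR 0.0241), and the scavenger receptor Msr1 with 3.98 ± 0.81 (FDR 0.0637). The others were Lpl (2.03 ± 0.47, FDR 0.131) and Cd14 (2.03 ± 0.54, FDR 0.24), named after their values were seen. The replicate block gave 11 as higher. In sum, this list had 160 to 274 CPM in SH glia and 584 to 1859 CPM in KA glia, while the members had 890 to 2250 and 474 to 1005 CPM.

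Markers of border macrophages and of blood leukocytes stayed at low levels. The 6 border macrophage genes summed to 19.7 to 26.8 CPM in SH glia and 24.6 to 28.6 CPM in KA glia, and the 8 leukocyte genes, of which 7 were tested, to 5.08 to 25.6 and 8.77 to 35.4 CPM. In both lists 0 genes were called by edgeR, DESeq2 or limma-voom, and 0 were at an unadjusted p under 0.05. Lyve1 (logFC 1.25 ± 0.61) and S100a9 (2.03 ± 1.37) had the smallest p values. Endothelial genes had a median of 0.77, with Ly6c1 at 1.19 ± 0.78, and pericytic genes one of -0.37, with Vtn at -1.51 ± 0.50. Of these 0 were called by edgeR and limma-voom, 1 was at an unadjusted p under 0.05, and 1 was called by DESeq2. With the replicate block, Lyve1 and the endothelial gene Tek were called higher and Vtn lower. Of 8 neuronal genes, Nrgn was called lower in glia (-1.44 ± 0.36, FDR 0.189), and the median was -0.54. The replicate block gave 2 neuronal genes as lower.

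**Figure D4:**
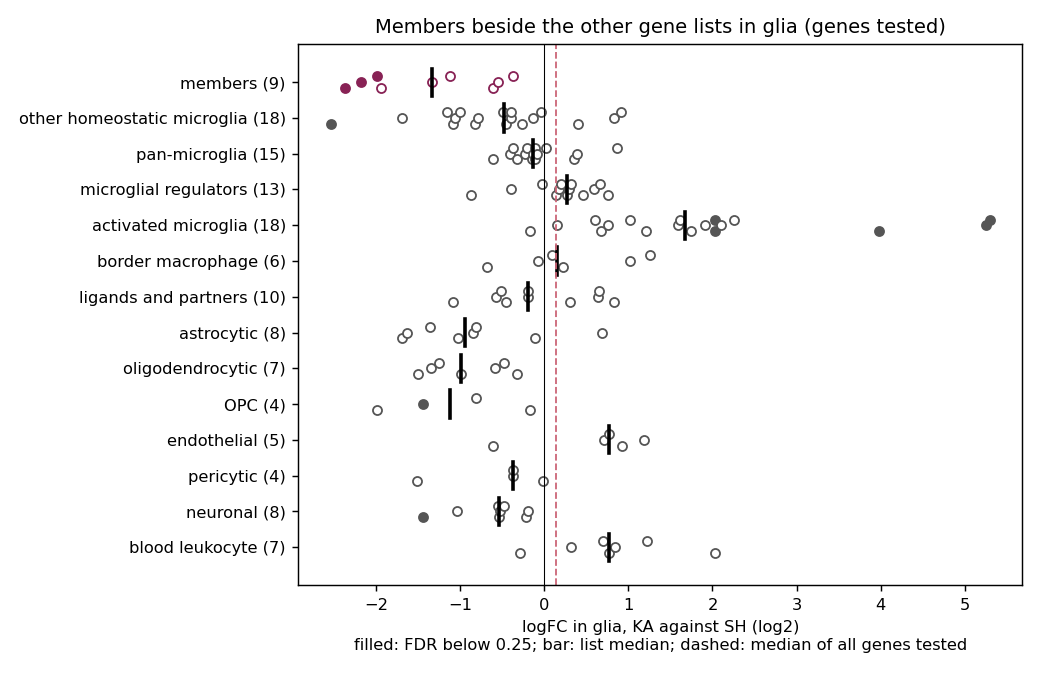
logFC in glia (log2, KA against SH) of every tested gene of the members and of 13 further lists, with list sizes in brackets. Filled points have an FDR below 0.25, bars are list medians, and the dashed line is the median of all genes, 0.14. The members have the lowest median of the lists, -1.34, and the activated microglia list the highest, 1.68.

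The ligands and partners of the members were examined in the same fit. None of the 10 was called in glia or in neurons by edgeR, DESeq2 or limma-voom. In edgeR, 1 was at an unadjusted p under 0.05 in glia and 2 in neurons. Csf1, a ligand of Csf1r, had 116, 223 and 169 CPM in SH glia and 201, 172 and 526 CPM in KA glia (logFC 0.82 ± 0.48, FDR 1.00), and in neurons a logFC of 1.07 ± 0.49 (FDR 1). With the replicate block, Csf1 was called higher in neurons (FDR 0.0997).

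Il34, the other ligand of Csf1r and largely a neuronal gene, had 59.4, 29.1 and 62.9 CPM in SH neurons and 28.02, 30.1 and 22.8 CPM in KA neurons. The groups overlapped narrowly, with a logFC of -0.90 ± 0.35 (FDR 1). Cx3cl1, the ligand of Cx3cr1, was at 794 CPM in SH neurons against 175 CPM in SH glia on average, and its logFC was 0.22 ± 0.55 in neurons and -0.19 ± 0.55 in glia. Entpd1, an ectonucleotidase that degrades the agonists of P2ry12 and P2ry13, had 46.5, 25.4 and 56.1 CPM in SH glia and 17.4, 21.1 and 21.7 CPM in KA glia. Its groups were separated by a gap that closed with CPM from library totals. The logFC was -1.09 ± 0.36 (FDR 0.546), with a call under the replicate block (FDR 0.125).

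Nt5e, which completes the breakdown to adenosine, had a logFC of -0.52 ± 0.41 in glia. Tyrobp, the adaptor through which Siglech signals, was at 14.8 CPM in SH glia and 12.9 CPM in KA glia (logFC -0.19 ± 0.62), and Gnai2, a G protein subunit used by the receptors, at 192 and 139 CPM (logFC -0.46 ± 0.36). The selectins Selp and Sele, partners of Selplg, had at most 4.28 CPM in a group of glia libraries on average, with logFC values of 0.63 ± 0.95 and 0.65 ± 0.89.

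In neurons the members were at low levels, and 0 of the 9 were called by edgeR, against 0.340% of all genes called in either direction. At an unadjusted p under 0.05, 1 was lower, Siglech, which DESeq2 called (FDR 0.148) and limma-voom did not. Siglech had 3.87, 3.79 and 5.59 CPM in SH neurons and 1.20, 1.91 and 1.62 CPM in KA neurons, and it was the 1 member whose neuron libraries did not overlap, a pattern of 9.72% of all genes. Its logFC was -1.47 ± 0.39 (FDR 0.353), and with the replicate block -1.47 (FDR 0.0274). Across alternatives this FDR ran from 0.0274 to 1.

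The other members overlapped between KA and SH neurons. P2ry12 had 5.21, 3.12 and 8.74 CPM in SH neurons and 2.14, 3.26 and 5.55 CPM in KA neurons (logFC -0.62 ± 0.50), and Selplg 7.93, 4.93 and 9.27 against 1.88, 4.79 and 5.51 CPM (-0.84 ± 0.44). Csf1r was the member with a positive logFC of some size, 0.68 ± 0.51, with 8.11, 10.3 and 23.3 CPM in SH neurons and 10.8, 24.5 and 31.3 CPM in KA neurons. The logFC values of P2ry13, Gpr34, Tmem119 and Sall1 lay between -0.42 and -0.36, and that of Cx3cr1 was 0.04 ± 0.52. Cx3cr1, Gpr34 and Tmem119 changed sign there when single neuron libraries were left out.

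Neuron levels were also expressed as a percentage of the glia level of the same pool. This was 3.20, 4.91 and 3.81% for P2ry12 in the SH pools and 10.1, 12.5 and 13.7% in the KA pools. For Gpr34 it was 4.46, 5.76 and 5.47% in SH and 14.2, 13.2 and 16.3% in KA, and for Csf1r 2.61, 3.25 and 3.73% in SH and 6.08, 9.48 and 7.45% in KA. These 3 genes and Selplg had higher percentages in each KA pool, and the other 5 members overlapped. The share of all genes with such a separation is not given here. A higher percentage was not always a higher neuron level. Mean SH and KA neuron levels were 5.69 and 3.65 CPM for P2ry12, and 3.45 and 2.57 CPM for Gpr34. They were 7.38 and 4.06 CPM for Selplg, and 13.9 and 22.2 CPM for Csf1r. Cx3cr1 stayed between 2.14 and 4.47% in all 6 pools. The source of member reads in NeuN+ libraries was not tested.

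The KA effect in glia was then compared with that in neurons by an interaction term. No member was called lower in glia than in neurons by edgeR, DESeq2 or limma-voom, and the share among all genes was 0%, with 286 genes lower at an unadjusted p under 0.05 in edgeR and 18 called lower by DESeq2. Among the members 1 was under that p, P2ry12, with a difference of -1.75 ± 0.70 (FDR 1). With the pool shared by both fractions as the block, P2ry12 (-1.65, FDR 0.0588) and Gpr34 (-1.48, FDR 0.14) were called. In that fit, 118 of all 37598 genes tested were called lower. FDR values over the alternatives reached 1 for both members. Siglech had a difference of -0.71 ± 0.53 and Selplg one of -1.15 ± 0.61, neither called. The difference of Sall1, 0.05 ± 0.80, changed sign in 11 of 26 alternatives.

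Over the 6 NeuN- libraries, the log2 levels of the members went together, with pairwise Pearson correlations from 0.29 to 1.00 and a median of 0.83 over 36 pairs. These libraries share pools, depth and treatment, so this is a description. Tmem119 followed the mean of the other 8 members most closely (r = 0.99) and Sall1 least (r = 0.46). The genes whose pattern over the 12 libraries was most like the mean of the members, among 14711 genes with at least 5 CPM in NeuN- libraries, included Ermn, Pld4, Gsn, Emid1, Mog, Fa2h and Mindy1, with r from 0.989 to 0.992. Several of these, such as Mog, Ermn and Fa2h, are oligodendrocyte genes, and Pld4 is expressed by microglia. Pld4 also had the highest correlation of these genes over the 6 NeuN- libraries alone, 0.98. It had 110 CPM in SH glia and 45.2 CPM in KA glia on average, with a logFC of -1.28 ± 0.44 (FDR 0.574). The members' mean centred log2 CPM was 0.99 to 3.49 in NeuN- and -3.16 to -1.23 in NeuN+ libraries. A high r over the 12 libraries can thus come from the difference between fractions and does not show a shared KA response. Mindy1, for 1, had a logFC of -0.41 ± 0.36 in glia.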

How the data were processed

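The authors trimmed mRNA reads with Trim Galore 0.4.3, aligned them to mm10 with Rsubread and deposited raw counts of uniquely mapped reads per gene, made by featureCounts at its default settings with GENCODE M16. Which of the study's sequencers read which library was not given in the sources used here. Symbols and positions came from GENCODE M21. The members and gene lists were chosen with earlier results of these data known, and all lists were written from general knowledge. Genes with a symbol were filtered by filterByExpr (minimum count 10, minimum total 15), scaled by TMM and fitted in edgeR 4.0.16 (R 4.3.3) by quasi-likelihood with legacy=TRUE and 4 group means over 12 libraries. FDR values are Benjamini-Hochberg adjusted over 37598 genes, with a threshold of 0.25; SE is the size of logFC over the square root of F. Methods of the study describe separate fits of the cell types, tried here as an alternative with the gene symbols used here, which need not give the gene set of the study. Replicate numbers were taken as pairs because KA and SH libraries of 1 number deviated together (correlations 0.457, 0.543 and 0.764 in glia and 0.399, 0.264 and 0.551 in neurons). NeuN- and NeuN+ libraries of a pool come from the same mice, so the block for the difference between cell types was the pool. Named are all members, their ligands and partners, host genes, up to 3 genes of smallest p in glia from every other list, and the 8 genes of most similar pattern (log2 CPM, prior count 2). Of the genes this rule names, 3 are not reported here. The fit was tested on simulated data, and the outcome is not given here. Simulated counts were drawn independently for each library, so they cannot show how joint deviations of replicates affect the calls. Alternatives used DESeq2 1.42.0, limma 3.58.1 and other scalings, filters and library sets. With 3 against 3 libraries an exact permutation test cannot go below 0.1, so none was used. RRBS data were not used here. Figures were drawn with matplotlib 3.10.9.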

Additional observations from a re-analysis of the deposited data

How the results depend on the processing

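The count of members called lower in glia, 3 at first, was 6 with the replicate block and 5 with at least 10 counts in every library. It was 4, with Gpr34 added, with legacy=FALSE, DESeq2, upper quartile scaling, library totals alone, no filter on low counts and protein-coding genes only. Separate fits of the cell types gave 2, without Selplg. The count was 1 at an FDR of 0.05, 0 without both low-input libraries, and 0 to 5 when single libraries were left out. In neurons, where 0 members were called lower, 1 (Siglech) was called with the replicate block, DESeq2, upper quartile scaling, library totals alone, at least 10 counts in every library and protein-coding genes only, and 0 to 1 when libraries were left out. For the difference between cell types the count was 2 with the pool as the block. Members without overlap in glia were 3 in place of 5 with CPM from library totals alone, and the members' ratio to the pan-microglia list, 0.538, was 1.07 against the oligodendrocytic list.

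Among all genes, 115 lower and 166 higher calls in glia became 17 lower with separate fits, 1566 and 1305 with the replicate block, 228 and 287 with legacy=FALSE, 379 and 302 with DESeq2, 175 lower with limma-voom, 572 and 305 with upper quartile scaling, 226 and 514 with library totals alone, 760 and 443 with at least 10 counts, 384 and 257 with protein-coding genes only, 11 and 51 at an FDR of 0.05, 1 and 40 without both low-input libraries, and 37 lower when scaled by the pan-microglia list. With single libraries left out they ran from 6 to 240 and from 66 to 314. The causes were not tested.

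Some logFC values changed sign, all of uncalled members. For Sall1 the difference between cell types was -0.02 with legacy=FALSE, -0.0092 with RLE size factors, -0.0806 without a filter, -0.0263 with protein-coding genes, -0.21 without both low-input libraries and from -0.55 to 0.93 with single libraries left out. Its logFC in glia ran from -0.97 to 0.51 over the fits with 1 library left out. In neurons, these ranges were -0.33 to 0.64 for Cx3cr1, -0.79 to 0.0794 for Gpr34 and -0.67 to 0.0664 for Tmem119. In glia, the logFC of the other 8 members was below 0 in all alternatives run. The 3 pools per group and totals as low as 7766930 counts limit what can be called.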
